A study of Mus musculus with 20 samples.

Results

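The genes described here encode the ligands and receptors of axon guidance. They were taken by symbol from the mouse annotation of GRCm38, with no filter on their values. Earlier results of these data were known when the set was chosen. The rule took the protein-coding netrins, DCC and UNC5 receptors, Slits, Robos, semaphorins, neuropilins, plexins, ephrins and Eph receptors. The rule found 69 genes of the 22013 protein-coding genes in the files, and all 69 had estimated counts. They comprised 4 netrins, 5 DCC and UNC5 receptors, 3 Slits, 4 Robos, 7 class 3 semaphorins, 13 other semaphorins, 2 neuropilins, 9 plexins, 5 A-type ephrins, 9 A-type Ephs, 3 B-type ephrins and 5 B-type Ephs.

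RNA-seq was performed on the hippocampus and the neocortex (labelled cerebral cortex) of male C57BL/6J mice aged 13.5 months. WT mice were compared with miR-324-null mice, which carried a global CRISPR/Cas9 deletion of *Mir324*, with 5 samples in each of the 4 groups and 20 samples in all. Founders were of mixed background (C57BL/6 with CBA/ca) and had been bred onto C57BL/6J, and both lines descend from heterozygotes. RNA came from unsorted tissue, the labels name no treatment, and they do not say which hippocampus and neocortex came from the same mouse. *Mir324* itself gives no check of the genotype labels, because mRNA libraries do not measure mature microRNAs.

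Axon guidance molecules steer growing axons by attraction or repulsion, and many of them continue to act in the adult brain on dendritic spines, synapses and blood vessels. Secreted netrins act through DCC and UNC5 receptors, secreted Slits through Robos, and class 3 semaphorins through receptors built from a neuropilin and an A-type plexin, while most membrane-bound semaphorins bind plexins directly. Ephrins are anchored to the cell surface (A-type by a lipid anchor, B-type by a transmembrane segment) and activate Eph receptor tyrosine kinases on the neighbouring cell. miR-324 gives a pair of mature microRNAs, and a microRNA lowers its targets mainly by pairing of its seed, bases 2 to 8, with sites in the 3′UTR of an mRNA.

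The mature miR-324 sequences (RefSeq, GRCm38.p6) are shown with the seed in capitals, since they set which matches were searched. Below them are the sites of the guidance genes on which later results turn, as the transcript reads 5′ to 3′ in GENCODE M21, with the match to the seed (and the A that follows it in an 8mer) in capitals.
miR-324-5p: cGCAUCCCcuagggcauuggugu
miR-324-3p: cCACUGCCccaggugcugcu
*Unc5c*, miR-324-5p site, chr3:141828951-141828958, + strand: ttggacaGGGATGCAgacactg
*Efna2*, miR-324-5p site, chr10:80188931-80188938, + strand: cgtccctGGGATGCAacatggg
*Efnb2*, miR-324-5p site, chr8:8619884-8619891, − strand: catagtaGGGATGCAggaagga
*Sema5b*, miR-324-3p site, chr16:35663880-35663887, + strand: ggtaagaGGCAGTGAggactga
*Plxna1*, miR-324-3p site, chr6:89318396-89318403, − strand: gaccatgGGCAGTGAcccaagg
*Ntn1*, miR-324-3p site, chr11:68212123-68212130, − strand: ggtttagGGCAGTGAcactatt
All these sites lie in annotated 3′UTRs, and they are descriptions of the letters there, not measured binding.

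A match of 7 bases (GGGATGC for miR-324-5p, GGCAGTG for miR-324-3p, same strand as the transcript) was searched in the annotated 3′UTRs of the 69 genes and of 20995 protein-coding genes. For miR-324-5p, 9 of the 69 genes (13.0%) held at least 1 match, beside 7.77% of all genes searched. They were *Efna2*, *Efna5*, *Efnb2*, *Ephb1*, *Ntn3*, *Sema3a*, *Sema4b*, *Unc5b* and *Unc5c*, and the match extended to an 8mer in *Efna2*, *Efnb2* and *Unc5c*. The study describes a second form of miR-324-3p with another seed, and its matches were not searched. For miR-324-3p as printed above, 20 of the 69 genes (29.0%) held a match, beside 13.5% of all genes. An 8mer for miR-324-3p was found in 9 of them, namely *Dcc*, *Ephb1*, *Ntn1*, *Plxna1*, *Sema4c*, *Sema5a*, *Sema5b*, *Sema6d* and *Unc5b*. In all, 25 guidance genes held a match for either arm and 4 held both. The 3′UTRs of the guidance genes were also longer, with a median of 1538 bases in the leading transcript (the transcript of highest mean level) of 65 genes, against 838 bases over 17769 protein-coding genes, and the part of length in these shares was not tested.

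Estimated counts summed to between 12752439 and 19617765 per sample, and the guidance genes held 0.278% to 0.377% of them. The summed markers followed the tissue labels. The 8 hippocampal markers summed to 199 to 299 TPM (a level scaled to transcript length and library size) in hippocampus samples and to 21.7 to 48.4 TPM in neocortex samples, and the 6 neocortical markers to 450.1 to 683 TPM in neocortex and 87.2 to 165 TPM in hippocampus. Of the neocortical markers, *Scnn1a* went the other way. Its mean was 3.98 TPM in WT hippocampus and 2.47 TPM in WT neocortex, and 5.14 and 2.92 TPM in null mice. Some libraries stood apart. The 7 choroid plexus markers summed to 7621 TPM in WT hippocampus library 3, 6467 TPM in null hippocampus library 5 and 1662 TPM in null neocortex library 2, and to at most 270.4 TPM elsewhere. The 9 striatal markers summed to 199 to 493 TPM in WT neocortex and 325 to 967 TPM in null neocortex, with 4 libraries above 400 TPM (WT 2 and null 1, 3 and 4). None of the markers of these 4 lists was at 0 in any library. The first component of the spread within a group set WT hippocampus library 3 apart (38.4% of that spread), null neocortex library 5 (39.3%), null hippocampus libraries 1 and 2 from 3 to 5 (41.4%) and WT neocortex library 1 from library 2 (29.7%).

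All 69 genes were detected, over a wide range of levels. Mean TPM over the 20 samples was at least 1 for 67 genes, at least 10 for 38 and at least 50 for 6. These 6 were *Ephb6*, an Eph receptor whose kinase domain is inactive, *Sema7a*, a lipid-anchored semaphorin, the Eph receptor *Epha4*, the transmembrane ephrin *Efnb3*, the netrin receptor *Unc5a* and the secreted ligand *Slit1*. *Ephb6* reached 133 ± 11.6 TPM in WT neocortex and 61.4 ± 11.6 TPM in WT hippocampus (SD, n = 5, as for every TPM value). *Epha4* stood in the reverse order, at 96.8 ± 13.8 TPM in WT hippocampus and 50.8 ± 6.88 TPM in WT neocortex. A short transcript of 459 bases held 49.6% of the *Ephb6* TPM in WT hippocampus and 49.1% in WT neocortex, and TPM depends on transcript length. The lowest were *Efna4*, at 0.631 ± 0.247 TPM in WT hippocampus, and *Epha1*, at 0.223 ± 0.0769 TPM. Both had 1 to 14 estimated counts per sample and were removed by the filter on low counts in every comparison, so 67 genes were tested.

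Within the receptor families the levels were uneven. Of the netrin receptors, *Unc5a* stood at 68.1 ± 9.57 TPM and *Dcc*, the receptor of netrin attraction, at 3.14 ± 0.611 TPM in WT hippocampus. All 4 netrins were low there, from 2.67 ± 0.432 TPM for *Ntn3* to 6.25 ± 2.80 TPM for *Ntn5*. Among the Robos, *Robo2* was highest in WT neocortex with 34.4 ± 2.97 TPM, and the endothelial *Robo4* lowest with 4.95 ± 0.970 TPM. The 9 plexins together summed to 227 ± 17.04 TPM in WT hippocampus and 227 ± 20.9 TPM in WT neocortex. The 3 Slits summed to 105 ± 17.9 TPM in WT hippocampus and 36.3 ± 3.36 TPM in WT neocortex, and the 2 neuropilins to 42.0 ± 8.41 and 14.9 ± 2.05 TPM.

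**Figure D1:**
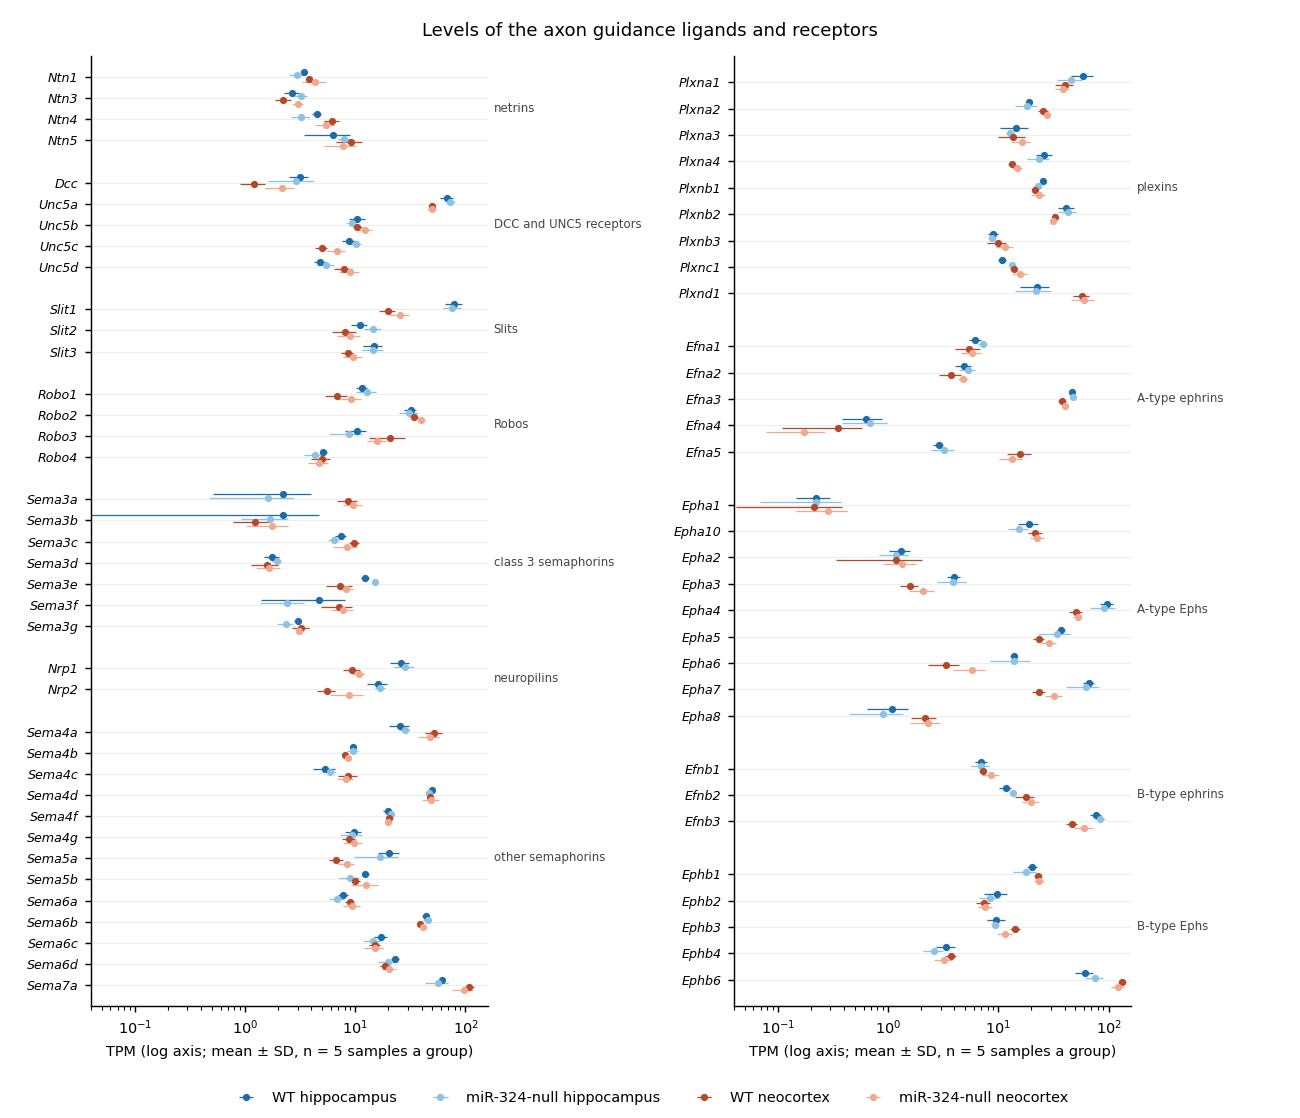
Levels of the 69 genes by family on a logarithmic TPM axis, each point the mean of 5 samples of a group and each bar its SD (a bar that reaches 0 or below runs off the axis). Slits, neuropilins and most A-type Ephs lie higher in hippocampus (blue), and *Efna5*, *Sema3a*, *Plxnd1* and *Ephb6* lie higher in neocortex (red). *Epha1* and *Efna4* lie below 1 TPM.

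The first question was which guidance genes differ between hippocampus and neocortex. In WT mice, 44 of the 67 tested genes passed the test, 27 higher and 17 lower in hippocampus. Over all 14894 genes tested, 18.1% were called higher and 18.0% lower. In miR-324-null mice, 39 of 67 passed, 18 higher and 21 lower, beside 13.8% and 13.6% of 15033 genes. Of the 67 genes, 33 were called in both genotypes, beside 22.6% of the 14777 genes tested in both (3342 genes, 2 of them in opposite directions). These comparisons hold no sample in common. Of the 33, 18 were higher and 14 lower in hippocampus in both, and 1, *Sema5b*, went in opposite directions. The median log2 fold change of the guidance genes was 0.19 in WT and 0.03 in null mice (all genes, 0.00 and 0.01), and the median of its absolute size was 0.41 and 0.46 (all genes, 0.17 in each). In these bulk tissues, fewer cells of a type and less RNA per cell cannot be told apart.

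**Figure D2:**
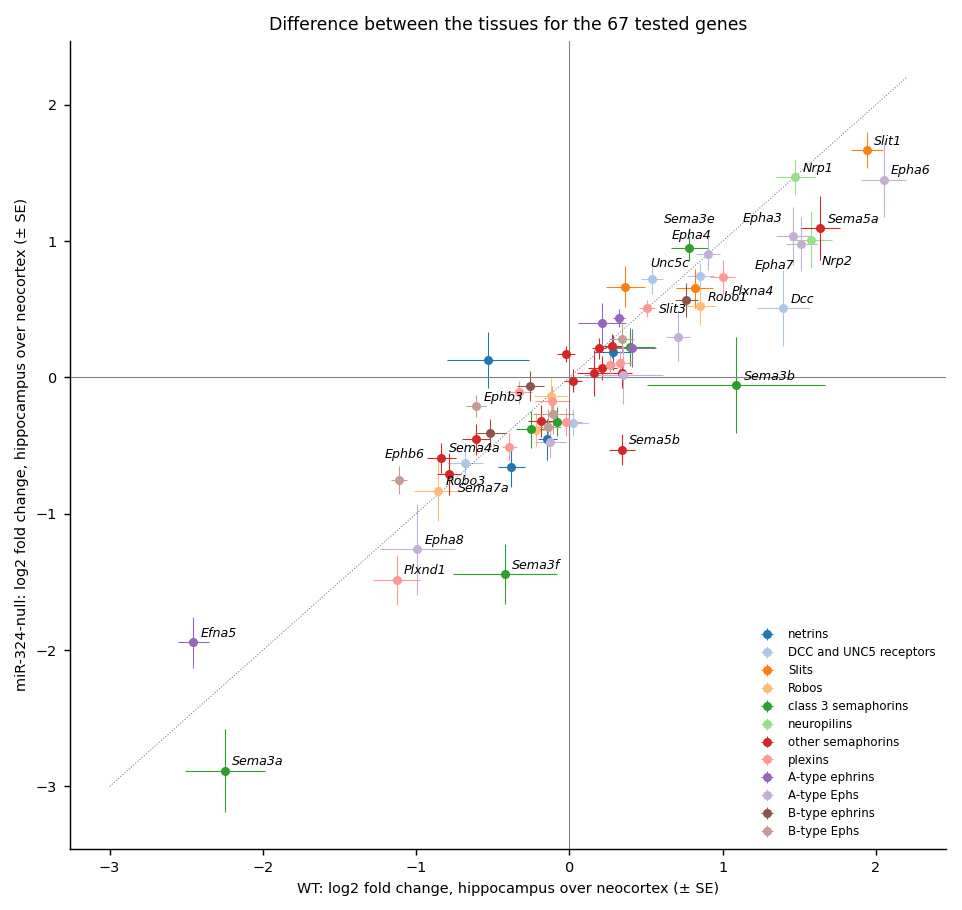
Tissue difference of the 67 tested genes as log2 fold change of hippocampus over neocortex, WT on the horizontal and miR-324-null on the vertical axis, with standard errors and colours by family; the dotted line marks equal values. *Slit1* and *Epha6* lie at the upper right, *Sema3a* and *Efna5* at the lower left, and *Sema5b* lies on opposite sides of 0 in the 2 genotypes.

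Slits, repulsive ligands of the Robos, were higher in hippocampus without exception, 3 of 3 in both genotypes. *Slit1* had 159.7, 191, 234, 218 and 180.3 CPM (counts scaled to library size with TMM factors) in the WT hippocampus samples and 57.0, 43.2, 54.0, 47.6 and 54.5 CPM in the WT neocortex samples, and 163, 186, 169, 209 and 228 against 63.8, 67.01, 52.0, 74.0 and 46.3 CPM in the null samples. Every hippocampal value lay above every neocortical one. The log2 fold change (± standard error from the fit here and below) was 1.94 ± 0.10, adjusted p = 1.81e-08 in WT and 1.66 ± 0.13, adjusted p = 3.52e-06 in null mice. For *Slit3*, with 36.9, 44.5, 56.4, 52.4 and 38.5 CPM in WT hippocampus, 31.5, 24.7, 23.3, 23.7 and 26.6 CPM in WT neocortex, 36.1, 39.0, 42.4, 52.3 and 56.6 CPM in null hippocampus and 29.3, 26.9, 25.6, 38.3 and 24.8 CPM in null neocortex, it was 0.82 ± 0.12, adjusted p = 0.000146 in WT and 0.65 ± 0.14, adjusted p = 0.00465 in null mice, where the groups overlapped. *Slit2* differed less in WT (0.36 ± 0.13, adjusted p = 0.0377), where its groups overlapped. That call was lost with any of 5 libraries left out (WT hippocampus 3 and 4, WT neocortex 2, 4 and 5), with adjusted p between 0.0661 and 0.0947. In null mice *Slit2* had 0.66 ± 0.15, adjusted p = 0.00574, again with overlapping groups.

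The Robos did not move together. *Robo1* was higher in hippocampus. It had 46.5, 39.7, 49.2, 51.2 and 43.5 CPM in WT hippocampus and 27.5, 25.5, 25.1, 19.5 and 29.5 CPM in WT neocortex, and 38.9, 45.8, 48.9, 53.8 and 48.2 against 38.5, 31.8, 36.3, 36.8 and 22.0 CPM in null samples. This gave a fitted log2 difference of 0.86 ± 0.10, adjusted p = 1.7e-05 in WT. In null mice the call (0.52 ± 0.14, adjusted p = 0.0122) was lost without the choroid-rich libraries (adjusted p = 0.0542). *Robo3*, a divergent Robo that counteracts Slit repulsion at the midline, was lower in hippocampus. It had 15.5, 19.0, 13.9, 17.8 and 21.1 CPM in WT hippocampus and 24.5, 33.8, 36.2, 40.7 and 22.7 CPM in WT neocortex, and 8.74, 7.88, 16.9, 16.99 and 17.05 against 18.8, 20.5, 29.8, 24.0 and 28.3 CPM in null samples, without overlap in either genotype. Its log2 ratio of hippocampus over neocortex was -0.86 ± 0.16, adjusted p = 0.000929 in WT and -0.83 ± 0.22, adjusted p = 0.0143 in null mice. *Robo2* was slightly lower in both genotypes, with a log2 fold change of -0.22 in WT and -0.39 in null mice, and both calls were lost with a transcript-length offset (adjusted p = 0.41 and 0.0603). With the offset in DESeq2, the null call was kept and the WT call lost. The null call was also lost without null hippocampus 1, 2 or 5 or null neocortex 2 or 4 (adjusted p up to 0.0805). *Robo4* passed in neither.

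Both neuropilins, the ligand-binding receptors of class 3 semaphorins, were higher in hippocampus. *Nrp1* had 43.9, 50.1, 65.0, 63.7 and 48.9 CPM in WT hippocampus and 24.1, 17.9, 16.6, 17.7 and 21.4 CPM in WT neocortex, and 51.7, 54.6, 49.9, 66.2 and 77.4 against 20.4, 23.2, 17.6, 23.9 and 23.7 CPM in null samples. The difference was of nearly the same size in both genotypes, 1.47 ± 0.13, adjusted p = 1.15e-06 in WT and 1.47 ± 0.13, adjusted p = 6.19e-06 in null mice. *Nrp2* had 53.2, 63.8, 76.3, 73.6 and 51.1 against 20.9, 18.6, 25.2, 16.7 and 24.9 CPM in WT (1.58 ± 0.14, adjusted p = 1.16e-06). In null samples it had 67.3, 65.4, 56.1, 68.9 and 73.9 against 34.9, 34.7, 41.3, 39.8 and 14.9 CPM (1.01 ± 0.21, adjusted p = 0.00283), where the fifth neocortex library stood below, and the other 4 above, every WT neocortex sample. The groups of both genes did not overlap in either genotype.

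Their ligands were split. *Sema3a*, a repulsive ligand of *Nrp1*, was the semaphorin with the largest tissue difference. It had 11.2, 5.75, 3.38, 2.99 and 6.67 CPM in WT hippocampus and 37.1, 28.4, 27.2, 26.8 and 24.4 CPM in WT neocortex, and 2.97, 1.45, 7.26, 6.19 and 3.23 against 29.7, 26.3, 26.3, 34.6 and 42.4 CPM in null samples. Hippocampal values were scattered, from 1.45 to 11.2 CPM, yet stayed below every neocortical one. The tissue difference in log2 was -2.25 ± 0.26, adjusted p = 1.64e-05 in WT and -2.88 ± 0.30, adjusted p = 2.23e-05 in null mice. *Sema3e*, a ligand of *Plxnd1*, went the other way. It had 50.1, 53.0, 50.5, 55.6 and 49.1 CPM in WT hippocampus and 41.1, 23.7, 29.9, 30.9 and 24.3 CPM in WT neocortex, and 63.2, 64.5, 59.0, 64.7 and 64.4 against 29.5, 33.1, 26.5, 37.3 and 38.3 CPM in null samples, with the tissues apart in both genotypes. On the log2 scale the tissues differed by 0.78 ± 0.12, adjusted p = 0.00019 in WT and 0.95 ± 0.09, adjusted p = 1.25e-05 in null mice. *Plxnd1* itself was lower in hippocampus. It had 60.0, 36.2, 29.4, 34.5 and 38.6 CPM in WT hippocampus and 95.6, 91.3, 89.6, 84.4 and 73.8 CPM in WT neocortex, and 26.7, 25.6, 44.1, 42.0 and 26.1 against 96.6, 71.9, 86.5, 123 and 85.9 CPM in null samples. This gave a fitted log2 difference of -1.13 ± 0.15, adjusted p = 6.26e-05 in WT and -1.48 ± 0.18, adjusted p = 7.49e-05 in null mice.

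*Sema3b*, *Sema3c* and *Sema3d* passed in neither genotype, and *Sema3f* and *Sema3g* passed in null mice alone. The *Sema3g* call was lost with 8 of the 10 null libraries left out singly (all but null hippocampus 4 and null neocortex 5, adjusted p up to 0.0833). Single libraries stood out among these. *Sema3b* had 2.41, 1.68, 11.6, 1.57 and 1.14 CPM in WT hippocampus, where the third value comes from the library richest in choroid markers. *Sema3f* had 4.17, 3.81, 5.52, 3.31 and 13.6 CPM there, where the fifth is the highest, and its difference from neocortex was -0.42 ± 0.34, adjusted p = 0.373 in WT and -1.44 ± 0.22, adjusted p = 0.000345 in null mice. Without the fifth WT hippocampus library, *Sema3f* passed in WT as well (-0.93 on the log2 scale, adjusted p = 0.00294).

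Of the 13 other semaphorins, 8 passed in WT (5 higher and 3 lower in hippocampus) and 5 in null mice (1 and 4). *Sema5a*, a transmembrane semaphorin that can attract or repel, had 117, 139, 161, 157 and 102 CPM in WT hippocampus and 33.9, 41.5, 46.5, 45.3 and 50.1 CPM in WT neocortex (1.64 ± 0.13, adjusted p = 5.52e-07). In null hippocampus it had 65.4, 76.9, 102, 137 and 176 CPM, overlapping the 51.6, 67.7, 51.6, 44.4 and 47.3 CPM of null neocortex. That call (1.09 ± 0.23, adjusted p = 0.00385) was lost without null neocortex libraries 1, 3 and 4, rich in striatal markers (adjusted p = 0.118). *Sema7a* was lower in hippocampus. It had 118, 132, 115, 109.8 and 120.0 CPM in WT hippocampus and 183, 217, 196, 242 and 188 CPM in WT neocortex, and 83.3, 85.7, 128, 125 and 121 against 146, 167, 172, 163 and 243 CPM in null samples. Its log2 ratio of hippocampus over neocortex was -0.78 ± 0.08, adjusted p = 3.23e-06 in WT and -0.71 ± 0.16, adjusted p = 0.00461 in null mice. *Sema4a* and *Sema4c*, which signal through plexins, were also lower in hippocampus in both genotypes (log2 fold change in WT -0.83 and -0.61, in null mice -0.59 and -0.46). *Sema4b*, *Sema6b* and *Sema6d* passed in WT alone, higher in hippocampus, and *Sema4d*, *Sema4f*, *Sema4g*, *Sema6a* and *Sema6c* passed in neither.

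Among the plexins, *Plxna4* and *Plxna1*, signalling partners of the neuropilins, were higher in hippocampus in both genotypes and *Plxna2* and *Plxnd1* lower. *Plxna4* had 177, 216, 225, 240.4 and 178 CPM in WT hippocampus and 109, 99.5, 106, 101 and 103 CPM in WT neocortex, and 143, 154, 189, 213 and 234 against 113, 113, 108, 127 and 102 CPM in null samples. The tissue difference in log2 was 1.0 ± 0.08, adjusted p = 6.19e-07 in WT and 0.74 ± 0.12, adjusted p = 0.000721 in null mice. The log2 fold change of *Plxna1* was 0.50 in WT and 0.51 in null mice, and the null call was lost with a transcript-length offset (adjusted p = 0.143). That of *Plxna2* was -0.39 and -0.51. *Plxna4* shares its locus with annotated antisense genes, and whether the counting used strand was not given in the sources used here. *Plxnb1* and *Plxnb2* (higher) and *Plxnc1* (lower) passed in WT alone, *Plxnb3* (lower) in null mice alone, and *Plxna3* in neither. The *Plxnb3* call was lost without null hippocampus 2 or 5 or null neocortex 2 or 3 (adjusted p up to 0.0744).

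**Figure D3:**
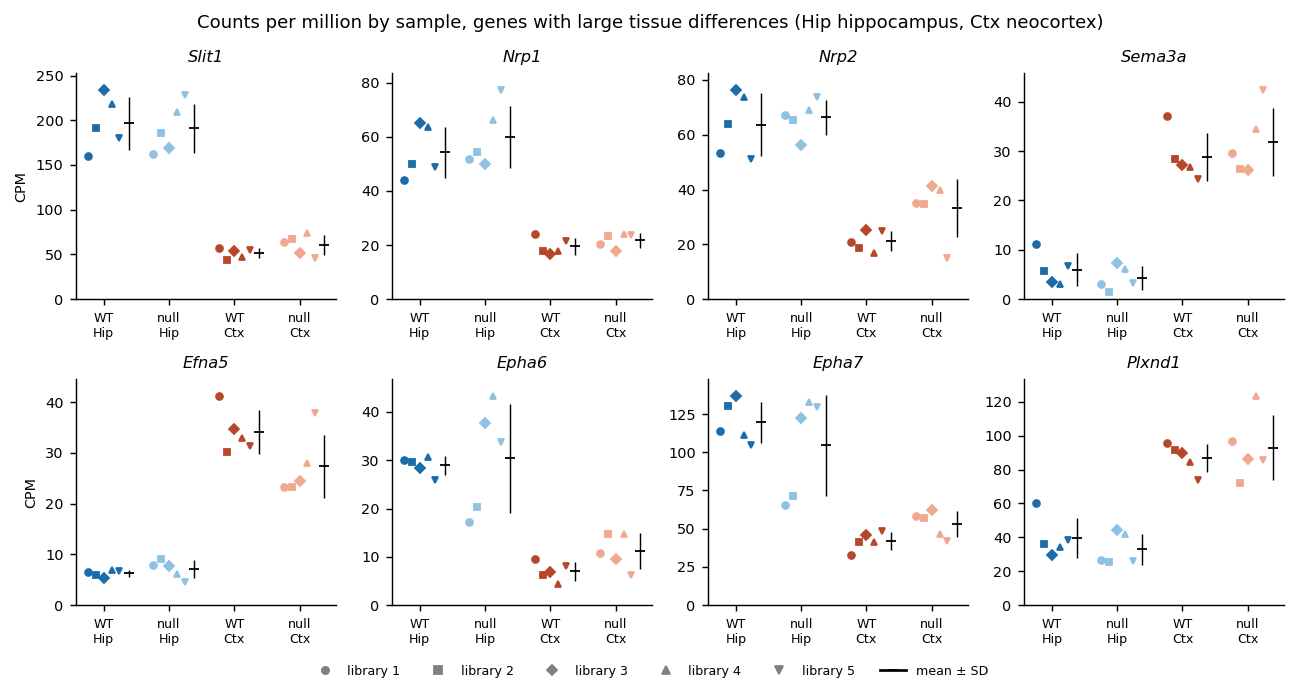
CPM of 8 guidance genes in each of the 20 samples, by group, with mean and SD beside the points and 1 symbol for each library number. *Slit1*, *Nrp1* and *Nrp2* separate the tissues upwards and *Sema3a*, *Efna5* and *Plxnd1* downwards, while null hippocampus libraries 1 and 2 are the lowest of their group for *Epha6* and *Epha7*, and null neocortex library 5 stands apart for *Nrp2* and *Efna5*.

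Of the 8 tested A-type Ephs, 5 were higher and 1 lower in WT hippocampus, and 4 and 2 in null hippocampus. *Epha3*, *Epha4*, *Epha6* and *Epha7* were higher in hippocampus in both genotypes. *Epha5* (higher) passed in WT alone, *Epha10* (lower) in null mice alone and *Epha2* in neither. *Epha6* had 30.1, 29.7, 28.5, 30.6 and 25.8 CPM in WT hippocampus and 9.52, 6.15, 6.84, 4.31 and 8.03 CPM in WT neocortex (2.05 ± 0.15, adjusted p = 2.04e-07). In null hippocampus it had 17.2, 20.3, 37.7, 43.3 and 33.8 CPM and in null neocortex 10.7, 14.8, 9.45, 14.8 and 6.30 CPM (1.45 ± 0.28, adjusted p = 0.00186). The first 2 null hippocampus libraries were the lowest of all hippocampal samples. *Epha7* showed the same order, with 114, 130.5, 137, 111 and 105 against 32.6, 41.6, 45.7, 41.4 and 48.2 CPM in WT (1.51 ± 0.10, adjusted p = 1.16e-07) and 65.8, 71.6, 123, 133 and 129.6 against 58.6, 57.2, 62.2, 46.8 and 42.0 CPM in null samples (0.98 ± 0.20, adjusted p = 0.00279). *Epha8* was lower in hippocampus in both (log2 fold change -0.99 in WT and -1.26 in null mice), at levels of at most 3.30 TPM.

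*Efna5*, an A-type ephrin that repels EphA-bearing axons, had the largest tissue difference of the 67 genes in WT. It had 6.44, 5.94, 5.26, 6.85 and 6.67 CPM in WT hippocampus and 41.2, 30.2, 34.7, 32.8 and 31.4 CPM in WT neocortex, and 7.96, 9.18, 7.76, 6.04 and 4.51 against 23.4, 23.2, 24.4, 28.0 and 37.8 CPM in null samples. The highest hippocampal value was 9.18 CPM and the lowest neocortical one 23.2 CPM. On the log2 scale the tissues differed by -2.45 ± 0.10, adjusted p = 1.79e-09 in WT and -1.94 ± 0.19, adjusted p = 1.25e-05 in null mice. *Efna3* was modestly higher in hippocampus. It had 57.0, 58.6, 58.7, 60.0 and 59.2 CPM in WT hippocampus and 46.4, 46.2, 46.7, 47.8 and 47.8 CPM in WT neocortex, and 68.9, 65.9, 60.0, 57.9 and 56.7 against 49.4, 42.3, 43.9, 47.1 and 47.6 CPM in null samples. This gave a fitted log2 difference of 0.32 ± 0.04, adjusted p = 1.71e-05 in WT and 0.43 ± 0.07, adjusted p = 0.000465 in null mice. *Efna1* and *Efna2* passed in neither genotype.

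On the B side, *Ephb6* was lower in hippocampus. It had 63.9, 66.8, 68.5, 79.7 and 69.8 CPM in WT hippocampus and 153, 146, 148, 151 and 155 CPM in WT neocortex, and 89.1, 88.6, 76.1, 81.2 and 65.7 against 115, 135, 145, 123 and 161 CPM in null samples, without overlap. Its log2 ratio of hippocampus over neocortex was -1.11 ± 0.05, adjusted p = 7.64e-09 in WT and -0.75 ± 0.10, adjusted p = 0.000163 in null mice. Of their ligands, *Efnb3* was higher in hippocampus (0.76 ± 0.08, adjusted p = 3.88e-06 in WT, 0.57 ± 0.12, adjusted p = 0.00466 in null mice), and its values are given with the genotype comparison. *Efnb2* was lower. It had 34.3, 26.8, 32.9, 36.5 and 31.4 CPM in WT hippocampus and 55.6, 41.4, 50.4, 39.2 and 45.2 CPM in WT neocortex, and 42.3, 38.5, 40.3, 32.1 and 30.9 against 50.2, 45.1, 55.6, 52.8 and 42.1 CPM in null samples, overlapping in the latter. The tissue difference in log2 was -0.52 ± 0.10, adjusted p = 0.00123 in WT and -0.41 ± 0.10, adjusted p = 0.0101 in null mice. Without null neocortex libraries 1, 3 and 4, rich in striatal markers, the null calls of *Efnb3* (adjusted p = 0.0526) and *Efnb2* (adjusted p = 0.287) were lost. So were those of *Epha3*, *Epha8*, *Epha10*, *Ntn1*, *Plxna2*, *Robo2*, *Robo3*, *Sema3g*, *Sema4c* and *Unc5d* (adjusted p up to 0.512). This fit holds 2 null neocortex libraries. *Efnb1* (lower), *Ephb2* (higher) and *Ephb3* (lower) passed in WT alone, and *Ephb1* and *Ephb4* in neither. The *Efnb1* call was lost with 8 of the 10 WT libraries left out singly (all but WT hippocampus 3 and WT neocortex 4, adjusted p up to 0.0925), and with DESeq2 (adjusted p = 0.052).

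For the netrin system, *Ntn4*, a laminin-like netrin, was lower in hippocampus. It had 9.18, 9.43, 10.9, 9.84 and 9.01 CPM in WT hippocampus and 11.7, 13.2, 11.8, 14.5 and 11.9 CPM in WT neocortex, and 5.54, 6.12, 8.37, 7.75 and 7.08 against 10.04, 14.7, 11.5, 9.23 and 9.99 CPM in null samples. On the log2 scale the tissues differed by -0.38 ± 0.09, adjusted p = 0.00386 in WT and -0.66 ± 0.15, adjusted p = 0.00546 in null mice. Of the netrin receptors, *Unc5c* was higher in hippocampus (0.85 ± 0.09, adjusted p = 6.83e-06 in WT, 0.74 ± 0.10, adjusted p = 0.000161 in null mice), and its values are given with the genotype comparison. *Unc5d* was lower. It had 31.4, 21.9, 25.8, 29.7 and 26.9 CPM in WT hippocampus and 50.3, 44.1, 46.1, 44.9 and 31.8 CPM in WT neocortex, and 32.2, 37.1, 31.1, 30.1 and 20.4 against 42.8, 39.9, 47.5, 59.9 and 44.3 CPM in null samples. This gave a fitted log2 difference of -0.68 ± 0.12, adjusted p = 0.000509 in WT and -0.63 ± 0.14, adjusted p = 0.0062 in null mice. *Unc5a* was higher in both genotypes (log2 fold change 0.54 and 0.72). *Dcc* was higher in WT hippocampus (1.39 ± 0.17, adjusted p = 2.67e-05), and in null mice it had 0.51 ± 0.28, adjusted p = 0.2, or 0.86 and an adjusted p of 0.018 without null hippocampus libraries 1 and 2. *Ntn1* and *Unc5b* (both lower) passed in null mice alone. With single null libraries left out the call was lost 7 times of 10 for *Ntn1* (all but null hippocampus 3 and null neocortex 2 and 5, adjusted p up to 0.103) and 3 times for *Unc5b* (null hippocampus 1 and 5 and null neocortex 4, adjusted p up to 0.0599), and *Ntn3* and *Ntn5* passed in neither genotype.

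Other genes of the pathway were also read, as 2 lists. Beside them, 18.1% of all genes tested were called higher and 18.0% lower in WT hippocampus (13.8% and 13.6% in null mice). Of 26 other guidance cues and co-receptors, 25 were tested, and 9 were higher and 6 lower in WT hippocampus (8 and 5 in null mice). *Ntng1*, a membrane-anchored netrin-G, was higher in hippocampus (log2 fold change 1.44, adjusted p = 2.76e-06 in WT, log2 fold change 0.91, adjusted p = 0.000822 in null mice) and *Flrt1*, a ligand of UNC5 receptors, lower (log2 fold change -1.07, adjusted p = 1.65e-05 and log2 fold change -1.10, adjusted p = 5.47e-05). Of 46 intracellular effectors, 15 were higher and 9 lower in WT hippocampus (10 and 11 in null mice). *Ngef*, an ephexin that acts downstream of EphA receptors, was lower in hippocampus (log2 fold change -1.57, adjusted p = 1.28e-08 in WT, log2 fold change -1.55, adjusted p = 2.73e-06 in null mice). No gene of either list passed in a genotype comparison or in the interaction.

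The second question was whether the loss of miR-324 moved the guidance genes. In the hippocampus 0 of 67 passed with edgeR, beside 0.115% of 14796 genes, and 15 had an unadjusted p of at most 0.05 (5 higher and 10 lower in null mice), beside 11.1% of all genes. DESeq2 called 3 in the hippocampus, *Sema3e*, *Sema5b* and *Plxnc1*, a plexin that binds *Sema7a* (by edgeR 0.30 ± 0.08, adjusted p = 0.247), beside 1.52% of the 9052 genes to which it gave an adjusted p. In the neocortex 1 of 67 passed, *Ephb3*, beside 0.315% of 14930 genes, and 20 had an unadjusted p of at most 0.05 (15 higher and 5 lower), beside 12.2% of all genes. DESeq2 called 3 there, *Dcc*, *Ephb3* and *Sema5b*, beside 1.61% of 14920 genes. With a length offset, DESeq2 called 0 there (183 of all genes), and in the hippocampus *Sema3e* and *Plxnc1* (84 of all genes). The 67 genes had a median log2 fold change of -0.06 in hippocampal and 0.09 in neocortical samples (all genes, 0.00 in each).

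**Figure D4:**
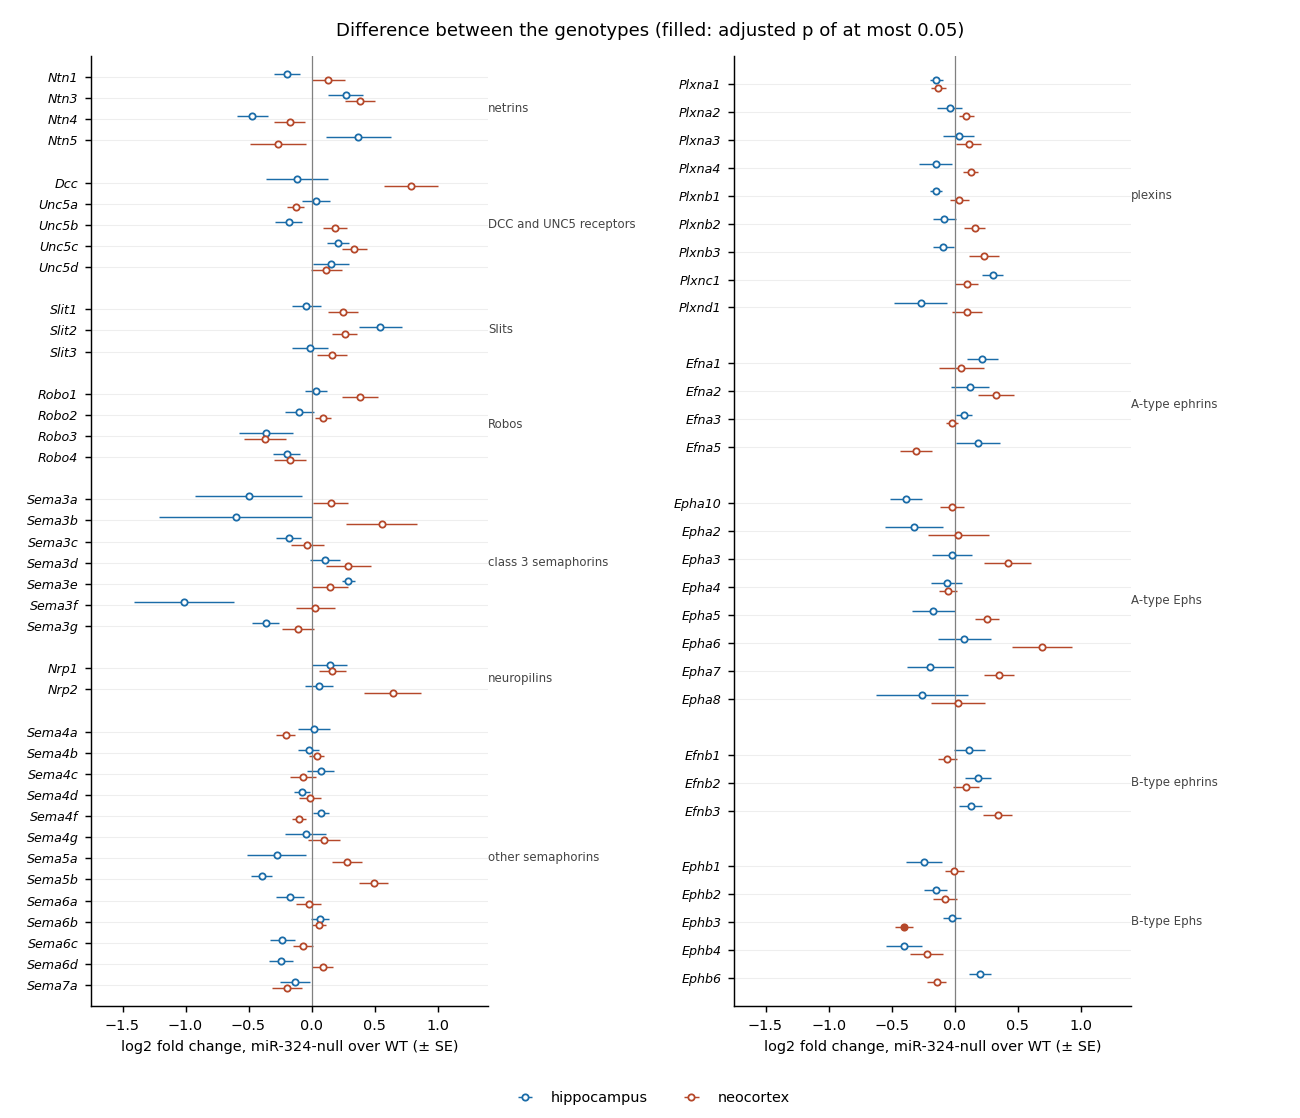
Genotype difference of the 67 tested genes as log2 fold change of miR-324-null over WT with standard errors, hippocampus in blue and neocortex in red, filled where the adjusted p was at most 0.05. *Ephb3* in neocortex is the single filled point, and the *Sema5b* points lie on opposite sides of 0.

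*Ephb3*, a receptor tyrosine kinase for B-type ephrins, was lower in null neocortex. It had 28.6, 31.3, 28.4, 28.3 and 25.7 CPM in the WT and 19.1, 21.4, 22.0, 20.2 and 24.2 CPM in the null neocortex samples, and every null value lay below every WT value. Null over WT, this was a log2 fold change of -0.40 ± 0.07, adjusted p = 0.0378. In the hippocampus it had 19.7, 19.8, 17.3, 17.3 and 19.1 CPM in WT and 17.5, 16.99, 20.7, 18.3 and 18.3 CPM in null samples (-0.02 ± 0.07, adjusted p = 0.949), where the groups overlapped. The difference between the tissues in this genotype effect did not pass (0.39 ± 0.10, adjusted p = 0.585). The neocortical call was lost with 8 of the 10 neocortex libraries left out singly (all but the fifth of each genotype, adjusted p between 0.0704 and 0.101) and with a transcript-length offset (adjusted p = 0.264). Without the 4 libraries rich in striatal markers it was -0.28 on the log2 scale (adjusted p = 0.849).

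The fifth null neocortex library mattered for the count. Without it, 12 guidance genes passed in the neocortex, beside 3.76% of 15071 genes (566 genes). *Dcc*, *Efnb3*, *Epha5*, *Epha6*, *Epha7*, *Nrp2*, *Plxnb2*, *Robo1* and *Sema5b* were higher in null mice and *Efna5*, *Ephb3* and *Sema7a* lower. The largest were *Dcc* (log2 fold change 0.92, adjusted p = 0.0209), *Epha6* (0.85, adjusted p = 0.0352) and *Nrp2* (0.83, adjusted p = 0.00291). With all libraries these were 0.79, 0.69 and 0.64, with adjusted p of 0.168, 0.273 and 0.273. Summed markers of null neocortex library 5 also differed from those of libraries 1 to 4. The hippocampal markers summed to 21.7 to 27.1 TPM in WT neocortex, to 31.1 to 48.4 TPM in null neocortex libraries 1 to 4 and to 23.7 TPM in library 5, and the striatal markers to 199 to 493, 379 to 967 and 325 TPM. None of either list was at 0, and their part in the result was not tested.

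*Sema5b*, a repulsive transmembrane semaphorin, was the 1 guidance gene of 67 whose genotype difference itself differed between the tissues, beside 0.0195% of 15391 genes tested in the interaction (12 guidance genes, and 5.57% of all genes, had an unadjusted p of at most 0.05). Results for *Sema5b* were known when the set was chosen, so its count is a description only. In the hippocampus it had 14.4, 17.8, 16.4, 16.8 and 17.6 CPM in WT and 12.9, 11.6, 13.2, 11.5 and 13.9 CPM in null samples, and in the neocortex 11.8, 11.9, 14.7, 14.3 and 12.8 CPM in WT and 14.7, 17.1, 22.8, 19.5 and 17.4 CPM in null samples. Every null value lay below every WT value in the hippocampus and above it in the neocortex, narrowly so for the lowest null neocortex sample. Neither difference passed by itself in the main edgeR fits of each tissue (-0.39 ± 0.08, adjusted p = 0.131 in the hippocampus, and 0.49 ± 0.11, adjusted p = 0.105 in the neocortex). The neocortical difference did pass with edgeR on all 20 samples in 1 fit, and with a block for replicate number. Their difference, hippocampus minus neocortex, was -0.88 ± 0.14, adjusted p = 0.0242. The tissue difference was 0.34 ± 0.09, adjusted p = 0.00636 in WT and -0.53 ± 0.11, adjusted p = 0.00369 in null mice, where it was lost with a transcript-length offset (adjusted p = 0.108).

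The interaction of *Sema5b* kept its direction under every alternative, from -0.95 to -0.74. It passed with DESeq2 (adjusted p = 8.79e-05) and was lost with a transcript-length offset in edgeR (adjusted p = 0.648), without the choroid-rich libraries (adjusted p = 0.11), without the striatum-rich libraries (adjusted p = 0.308), and with any 1 of 10 libraries left out (adjusted p up to 0.0822, for WT hippocampus 2, 4 and 5, WT neocortex 1, 2 and 5, null hippocampus 1, 2 and 4, null neocortex 4). The interaction was lost with a length offset in DESeq2 as well. It rested on 151 to 383 estimated counts per sample. The 8mer for miR-324-3p printed above lies in the annotated 3′UTR of 2 of the 8 *Sema5b* transcripts. The leading transcript holds it and had a mean share of 41.7% to 46.8% of the gene's TPM in the 4 groups. The genotype difference was positive in the neocortex and negative in the hippocampus.

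In both tissues, 3 guidance genes had an unadjusted p of at most 0.05 with the same sign, and none passed after adjustment. The share of all genes that meet this rule was not counted, so the number is a description only. *Unc5c*, whose site for miR-324-5p is printed above, had 53.4, 49.5, 53.6, 59.3 and 41.6 CPM in WT and 59.8, 55.1, 57.2, 68.4 and 57.5 CPM in null hippocampus (0.21 ± 0.09, adjusted p = 0.41). In the neocortex it had 32.6, 26.4, 29.3, 27.5 and 26.4 against 38.3, 32.3, 32.0, 45.0 and 31.9 CPM (0.34 ± 0.10, adjusted p = 0.205). *Slit2* had 27.2, 26.7, 40.2, 41.3 and 29.0 CPM in WT and 59.6, 59.6, 36.7, 38.7 and 45.8 CPM in null hippocampus (0.55 ± 0.17, adjusted p = 0.306), with the first 2 null libraries highest, and 0.30 on the log2 scale without them. In the neocortex it had 27.0, 24.2, 28.0, 22.8 and 25.5 against 29.5, 30.9, 28.5, 38.2 and 25.2 CPM (0.26 ± 0.10, adjusted p = 0.314). *Plxna1*, with the site for miR-324-3p printed above, had 174, 185, 197, 205 and 191 against 166, 167, 169, 178 and 181 CPM in the hippocampus (-0.14 ± 0.05, adjusted p = 0.361) and 145, 129, 128, 129 and 139.7 against 109, 122, 120.2, 137 and 123 CPM in the neocortex (-0.13 ± 0.06, adjusted p = 0.399). The groups of all 3 genes overlapped in both tissues.

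**Figure D5:**
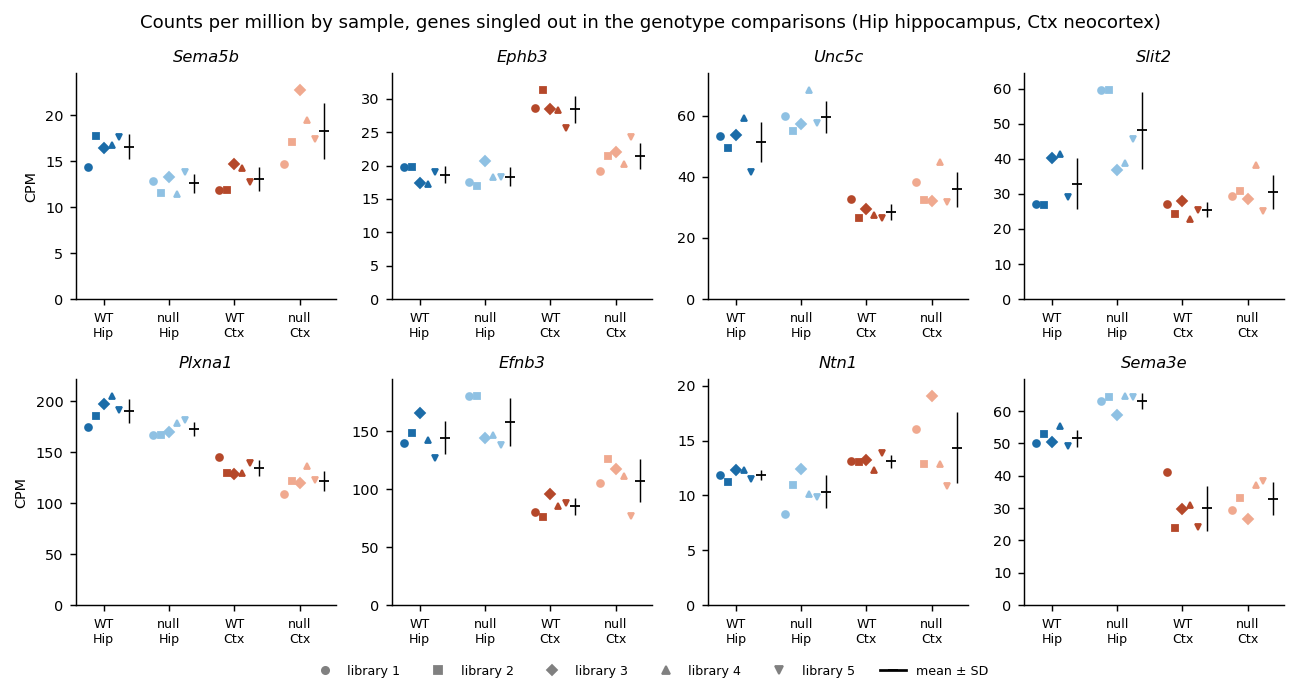
CPM of 8 guidance genes singled out in the genotype comparisons, in each of the 20 samples by group, with mean and SD beside the points. For *Ephb3* the WT neocortex samples lie above the null ones, *Sema5b* lies lower in null hippocampus and higher in null neocortex, and the other genes overlap between genotypes except *Sema3e* in hippocampus.

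*Sema3e* came nearest to the threshold in the hippocampus, with 50.1, 53.0, 50.5, 55.6 and 49.1 CPM in WT and 63.2, 64.5, 59.0, 64.7 and 64.4 CPM in null samples. These groups did not overlap (0.29 ± 0.05, adjusted p = 0.067). In the neocortex it had 0.14 ± 0.14, adjusted p = 0.743, and its groups overlapped there.

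Guidance genes with a seed match for miR-324 were read side by side with the others, as a description. Of the 9 genes with a match for miR-324-5p, 5 had a positive log2 fold change (higher in null mice) in the hippocampus and 7 in the neocortex, with medians of 0.12 and 0.15. The other 58 tested genes had medians of -0.08 and 0.07. *Efna2*, *Efnb2* and *Unc5c*, with an 8mer, were positive in both tissues. Their values in the hippocampus were 0.12, 0.18 and 0.21, and in the neocortex 0.33, 0.09 and 0.34, with adjusted p between 0.205 and 0.817 over the 6 values. Of the 20 genes with a match for miR-324-3p, 6 were positive in the hippocampus and 13 in the neocortex (medians -0.15 and 0.07, against -0.02 and 0.09 for the other 47). The 9 with the miR-324-3p 8mer had medians of -0.19 (1 positive) in the hippocampus and 0.13 (6 positive) in the neocortex. In the main edgeR fit (each comparison on its own groups, no block) no gene with a match passed in a genotype comparison. DESeq2 called *Sema5b* in both tissues and *Dcc* in the neocortex, both with the miR-324-3p 8mer. Neither gene was called in either tissue with DESeq2 and a length offset. *Sema5b* also passed in the neocortex with edgeR on all 20 samples in 1 fit, and with a block for replicate number.

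*Efnb3* and *Ntn1* lie within 2 Mb of *Mir324* (chr11:70012043-70012131), where the genotypes can differ in the flanking genome as well as in the deletion, and these cannot be told apart. *Efnb3* (chr11:69554092-69560205, − strand), 0.452 Mb away, had 139.6, 148, 166, 142 and 127 CPM in WT and 180.4, 180.1, 144, 147 and 139 CPM in null hippocampus (0.13 ± 0.09, adjusted p = 0.64), and the log2 fold change was -0.01 without null libraries 1 and 2. In the neocortex it had 80.3, 76.1, 95.8, 85.9 and 88.2 CPM in WT and 105, 126, 117, 111 and 76.7 CPM in null samples (0.34 ± 0.11, adjusted p = 0.256). The first 4 null neocortex samples were above every WT sample and the fifth was not, and without it *Efnb3* passed (0.44 on the log2 scale, adjusted p = 0.00726). *Ntn1* (chr11:68209364-68400823, − strand), 1.61 Mb away, had 11.9, 11.2, 12.3, 12.4 and 11.5 against 8.35, 10.9, 12.4, 10.1 and 9.91 CPM in the hippocampus (-0.19 ± 0.10, adjusted p = 0.499) and 13.1, 13.0, 13.2, 12.3 and 13.9 against 16.0, 12.9, 19.1, 12.9 and 10.9 CPM in the neocortex (0.13 ± 0.13, adjusted p = 0.74). Its groups overlapped in both tissues, and the neocortical value turned to -0.14 without the libraries rich in striatal markers.

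The share of a gene's TPM held by its leading transcript was compared over 62 guidance genes with more than 1 transcript and a mean of at least 1 TPM. Between the tissues, the shares of 0 genes in WT and 1 in null mice did not overlap, beside 1.91% and 2.34% of 12254 genes. The 1 gene was *Efna3*, at 93.8% ± 2.53 (SD, n = 5, as for the shares below) in null hippocampus and 85.4% ± 5.19 in null neocortex. Between genotypes, the shares were apart for 0 genes in hippocampal and 1 in neocortical samples, beside 0.547% and 1.12% of 12254 genes. The 1 gene was *Sema3c*, a class 3 semaphorin, whose leading transcript held 57.1% ± 10.6 in WT and 90.2% ± 10.1 in null neocortex. No test was run on these shares, which rest on kallisto's division of reads between overlapping transcripts. The leading transcript of *Robo3*, *Plxnd1* and *Plxnb3* was annotated as a retained intron, and that of *Sema6c* as a processed transcript. The gene sums of these genes therefore include transcripts not annotated as protein-coding.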

How the data were processed

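Stranded mRNA libraries of hippocampus and neocortex from WT and miR-324-null mice (5 samples a group, grouped per the labels) were quantified by the authors with kallisto against Ensembl mouse transcripts. The deposited files hold estimated counts and TPM (the authors' level scaled to transcript length and library size) for each transcript. Here estimated counts were summed per gene and rounded, and 113580 of 115270 transcripts matched GENCODE M21. Genes were tested with edgeR 4.0.16 in R 4.3.3 (filterByExpr, TMM, quasi-likelihood, Benjamini-Hochberg over all genes tested, threshold 0.05), each comparison on its own groups and the interaction on all 20 samples. DESeq2 1.42.0, transcript-length offsets, other scaling, no filter, a replicate block and left-out samples were alternatives. Depth was 12752439 to 19617765 estimated counts per sample, which limits genes of few counts most. Replicates were separate samples per the labels, which do not say that each is a separate animal, so p-values measure the spread between these samples. Reads of near-identical transcripts may be split between genes.

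Values in every sample were given for members past the threshold in a genotype comparison or the interaction, those with an unadjusted p of at most 0.05 and 1 sign in both tissues, the 2 largest consistent tissue differences of each family, and members within 2 Mb of *Mir324*. Other members with values were chosen after their values were seen. The members and lists were chosen with earlier results of these data known, *Sema5b* among them. Both fits were run on simulated data with known changes first. One effector that the rule would name is not reported here.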

Additional observations from a re-analysis of the deposited data

Results flagged for a closer look

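In 3 of the 108 groups of 5 examined over 27 guidance genes, 1 sample stood apart from its group by Dixon's criterion, which chance meets in about 1 in 20 groups. For *Nrp2*, the fifth null neocortex sample was lowest at 14.9 CPM (the others, 34.7 to 41.3 CPM). For *Sema7a*, the same sample was highest at 243 CPM (the others, 146 to 172 CPM). For *Sema3e*, the third null hippocampus sample was lowest at 59.0 CPM (the others, 63.2 to 64.7 CPM). The genotype difference of *Sema5b* differed between hippocampus and neocortex in the test of the interaction, by -0.88 on the log2 scale (edgeR, adjusted p = 0.0242). Results for *Sema5b* were known when the set was chosen.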

How the results depend on the processing

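Between tissues, 42 to 47 of the guidance genes were called in WT mice over all alternatives and 27 to 47 in null mice (42 to 47 and 35 to 43 with single samples left out). The count over all genes moved too, from 4333 to 5411 in WT mice. In null mice it was 2056 at 27 guidance genes (striatum-rich libraries left out), 5001 at 47 (all 20 samples in 1 fit) and 4125 in the main fit. In the hippocampus 0 were called with edgeR under every alternative and any single sample left out, 3 with DESeq2 and 2 with DESeq2 and a length offset. Over all genes, these DESeq2 fits called 138 and 84. In the neocortex, where 1 was called, 3 were called with DESeq2, 2 with all 20 samples in 1 fit, and 0 with a length offset in edgeR or DESeq2, without the choroid-rich libraries or without the striatum-rich libraries (these sets of libraries, and null hippocampus libraries 1 and 2, were chosen after seeing the data). With single samples left out the neocortical count ran from 0 to 12, and that of the interaction from 0 to 1. Over all genes, the neocortical count was 47 in the main fit, 240 with DESeq2, 56 with all 20 samples and 566 without null neocortex 5. The length-offset fits and those without choroid-rich or striatum-rich libraries called 25 to 183 genes there. The interaction count was 0 with a length offset in edgeR or DESeq2, without the choroid-rich or the striatum-rich libraries, and without null hippocampus libraries 1 and 2. Over all genes, those interaction fits called 1 to 5. The cause of these changes was not tested, and leaving out libraries also leaves fewer samples.

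The numbers were not taken as a pairing, since same-numbered deviations did not all correlate above 0.1 in any pair of groups. Correlations were -0.01 to 0.20 between null hippocampus and null neocortex, where 3 of 5 were above 0.1 and 3 of 5 samples were closest to their own number, and -0.21 to 0.15 in the other pairs of groups, with 1 of 5 above 0.1 in each. With the replicate block, 43 guidance genes were called between tissues in WT and 42 in null mice, 0 between genotypes in the hippocampus, 1 in the neocortex (*Sema5b* in place of *Ephb3*, whose adjusted p was 0.105) and 0 in the interaction (*Sema5b*, adjusted p = 0.0742). Over all genes, the block gave 5044, 4041, 4, 30 and 0 calls, in the same order.

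Of 1182 values of single genes under the alternatives, 1136 kept their direction and side of the threshold, 35 lost the threshold, 6 passed it and 5 changed sign. Those were *Ephb3* in the hippocampus, at 0.036 without null hippocampus libraries 1 and 2 and between -0.069 and 0.0051 with single samples left out (above 0 without sample 2 of either genotype), *Efnb3* in the hippocampus, at -0.013 without null libraries 1 and 2, and *Ntn1* in the neocortex, at -0.14 without the striatum-rich libraries. None of these values passed in any of these fits. Restricting seed matches to 8mers left 3 genes for miR-324-5p and 9 for miR-324-3p, and searching the leading transcript alone left 8 and 18. The 0 WT tissue differences in leading-transcript share stayed 0 with a minimum of 5 TPM.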
